A study of Mus musculus with 15 samples.

Results

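The 10 genes described here (*Aif1*, *C1qa*, *C1qb*, *C1qc*, *Csf1r*, *Adgre1*, *Cd68*, *Mrc1*, *Cd163* and *Lyz2*) are genes by which macrophages of mouse tissues are recognised. They were chosen by symbol from the 55487 genes of the count table, and all 10 were found and followed through 15 skin libraries. The libraries were made from skin of 3-week-old C57BL/6 mice, with 5 libraries in each of 3 groups. These were WT skin and, from OTULIN E-KO mice, skin labelled non-lesional and skin labelled lesional. OTULIN E-KO mice carry *loxP*-flanked *Otulin* alleles and *K14-Cre*, whose keratin promoter drives recombination in keratinocytes. The WT mice were littermates with the flanked alleles and no Cre, so every group carries *loxP* sites in *Otulin*, and macrophages are not the cells that the Cre line targets. Whole skin was sequenced, both sexes were used, and the lesions are focal, so that the amount of lesion in a lesional sample can vary. Neither the labels nor the study's methods tell whether non-lesional and lesional samples came from the same mice.

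Macrophages of the dermis take up dead cells, microbes and debris and digest them in lysosomes. They depend on the receptor Csf1r, which binds the growth factors CSF1 and IL-34, and they are the main source of C1q, the recognition subunit of the classical complement pathway. In inflamed skin, resident macrophages, which carry scavenger receptors such as Mrc1 and Cd163, are joined by cells derived from blood monocytes. Among the members, *Aif1* encodes IBA1, an actin-bundling protein of motile and phagocytic macrophages, *Adgre1* encodes the surface marker F4/80, and *Cd68* encodes a glycoprotein of the lysosomal membrane. *Lyz2* encodes a lysozyme that neutrophils make too. In RNA of whole skin, fewer macrophages and less macrophage RNA per cell cannot be told apart.

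In GRCm38, *Aif1* (ENSMUSG00000024397) lies on the minus strand of chromosome 17 from 35170991 to 35176068. *C1qa* (ENSMUSG00000036887), *C1qb* (ENSMUSG00000036905) and *C1qc* (ENSMUSG00000036896) lie side by side on the minus strand of chromosome 4 and span 18675 bases together, from 136880129 to 136898803. The promoters of 7 of the 10 members were in the RefSeq promoter table for GRCm38.p6. Those of *C1qa*, *Csf1r* and *Adgre1* were not in it and were not searched. The table gave 250 bases before each gene start, in which 2 motifs were searched on both strands. The first was the core GAGGAA of the sites of PU.1, the transcription factor that defines myeloid cells, and it was in 23.3% of 32851 promoters. The second was GAAA, any 2 bases and GAAA, the core of the interferon-stimulated response element, and it was in 2.98% of them. The PU.1 core was found for *Aif1*, *C1qb*, *C1qc*, *Cd68* and *Mrc1*, and not in the windows of *Cd163* and *Lyz2*. The response element core was found for *Aif1* alone of the 7. The results below turn on *Aif1* and the C1q genes. Of these, the windows of *Aif1*, *C1qb* and *C1qc* are shown where they hold these letters. The matched motif is in capitals, read 5′ to 3′ on the strand of the gene. The *Aif1* windows are chr17:35176053-35176082 and chr17:35176190-35176219, and those of *C1qb* and *C1qc* are chr4:136886213-136886242 and chr4:136893090-136893119, all on the minus strand.
*Aif1*, PU.1 core, 7 bases before the RefSeq start: tagccgtggtgataggcacccagTTCCTCc
*Aif1*, response element core, 157 bases before the RefSeq start: ttttaaaaaaGAAAAAGAAAagagaaaaca
*C1qb*, PU.1 core, 30 bases before the RefSeq start: gcagcaggatggGAGGAAcagaggggtgat
*C1qc*, PU.1 core, 193 bases before the RefSeq start: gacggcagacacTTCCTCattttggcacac
The start of *Aif1* in the RefSeq table lies inside the span given above from another annotation, so its PU.1 match is within that span. A match is a run of letters only, and binding was not measured.

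The libraries were QuantSeq 3′ mRNA libraries, in which reads come from the 3′ ends of polyadenylated transcripts, so counts were not divided by gene length. They held 1962604 to 2567138 counts, of which 971 to 2357 fell on the 10 members. Levels are given as CPM, here computed from the counts on TMM-normalized library sizes. The targeted gene *Otulin* was at 12.4 to 28.5 CPM in WT, 21.5 to 31.1 CPM in non-lesional and 19.2 to 27.5 CPM in lesional libraries, so it did not separate the genotypes, and groups are named by their labels. The sources used here do not say which exons are flanked by *loxP*. A 3′ read outside the deleted part would check nothing, and the skin also holds cells without Cre. Lesional replicates 2 and 11 stood apart from the other libraries, with 3050 and 5300 CPM summed over 12 neutrophil genes. Non-lesional replicate 3 was at 225 CPM, and the other libraries were at 7.67 to 26.9 CPM. Most of the sums in lesional replicates 2 and 11 came from *S100a8* (1290 and 2430 CPM) and *S100a9* (1720 and 2730 CPM), of which keratinocytes can be a source too. The same libraries had 13000 and 32200 CPM over 4 stress keratins against 663 to 2220 CPM. Non-lesional replicate 3, which had the highest *Aif1* level of its group, was at 223 CPM of the stress keratin *Krt6b*, where the other non-lesional libraries were at 0.859 to 10.2 CPM. WT replicate 13 had the highest level among WT libraries of 9 of the 10 members.

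No macrophage gene passed the test in any comparison. With edgeR's quasi-likelihood test and an adjusted p under 0.05, 0 of the 10 members were called between non-lesional and WT libraries, where 0% of 13021 genes were called. The same held between lesional and WT libraries (0 of 10 members, 0% of 12918 genes) and between lesional and non-lesional libraries (0 of 10 members, 0% of 12864 genes). At an unadjusted p under 0.05, 0 of 10 members passed between non-lesional and WT libraries, against 3.16% of all genes. Between lesional and WT libraries 2 members passed, *Aif1* and *C1qa*, both higher in lesional libraries, where 3.24% of all genes passed in this direction and 4.81% in either. Between lesional and non-lesional libraries 2 members passed, *C1qa* and *C1qb*, both higher in lesional libraries, where 2.89% of all genes passed in this direction and 4.22% in either. DESeq2's Wald test and limma's voomWithQualityWeights also called 0 of the 10 members in each comparison.

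All 10 members passed the filter on low counts in each comparison. Between non-lesional and WT libraries 7 had a log2 fold change above 0 (49.4% of all genes did), and their median was 0.084 against -0.0027 over all genes. Between lesional and WT libraries 6 were above 0 (49.5% of all genes), with a median of 0.17 against -0.0034. Between lesional and non-lesional libraries 8 were above 0 (50.6% of all genes), with a median of 0.086 against 0.0031. Both comparisons with WT use the same 5 WT libraries, and both comparisons with lesional libraries use the same 5 lesional libraries, so these values are not independent of each other. Without lesional replicates 2 and 11 the median was -0.056 between lesional and WT libraries, so that its direction rests on these libraries. Only *Aif1* then had an unadjusted p under 0.05, where 2.94% of all genes did. Between lesional and non-lesional libraries 6 of 10 members were above 0 without them, with a median of 0.12, and *C1qc* (-0.27), *Cd68* (-0.17) and *Mrc1* (-0.20) were below 0 while *Cd163* (0.16) was above. *Adgre1* was then the only member with an unadjusted p under 0.05, at a log2 fold change of -0.58 (unadjusted p = 0.046, adjusted p = 0.993 from edgeR), where 3.51% of all genes passed. With scores of hair and muscle genes as covariates, the members' median between lesional and non-lesional libraries was -0.0043.

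**Figure D1:**
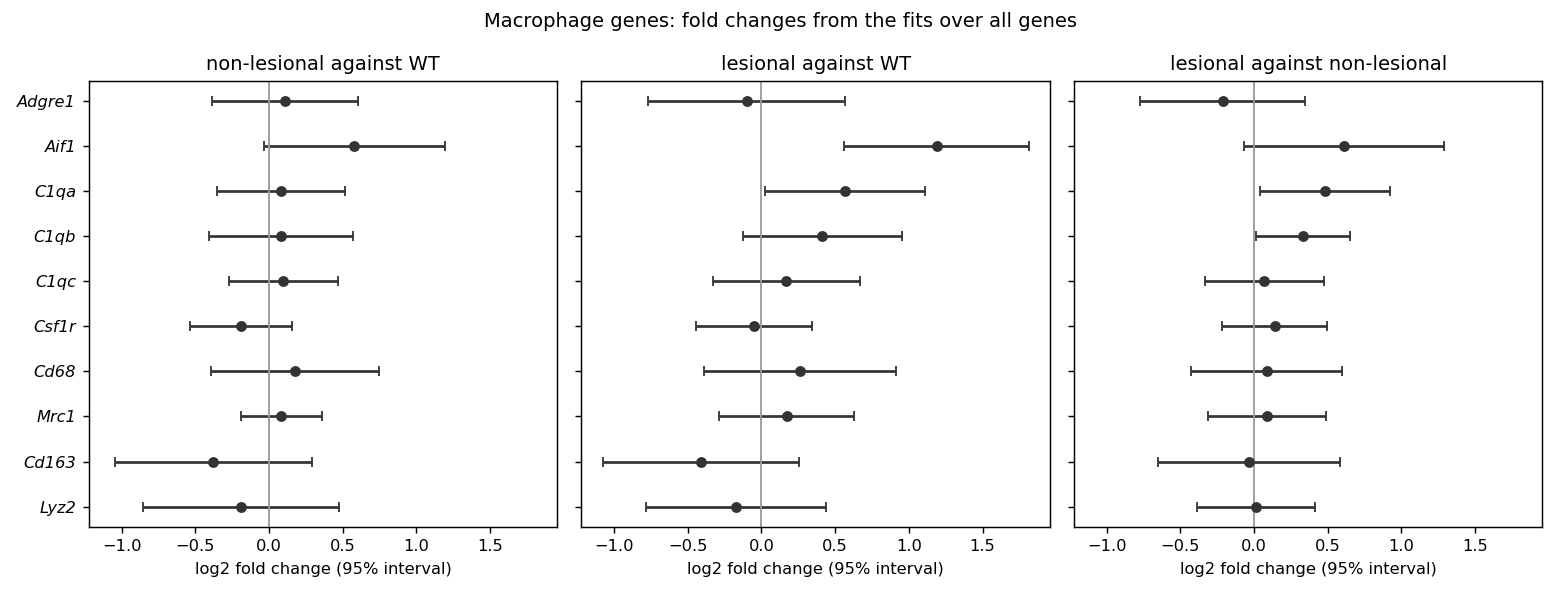
Log2 fold change of each macrophage gene (x axis, point) with its 95% interval (bar) in the 3 comparisons, one panel each, from edgeR fits over all genes. The interval lies above 0 for *Aif1* and *C1qa* between lesional and WT libraries and for *C1qa* and *C1qb* between lesional and non-lesional libraries, and all other intervals include 0.

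*Aif1* was the member with the largest difference. It was at 5.50, 9.71, 7.24, 5.97 and 6.07 CPM in WT replicates 1, 4, 7, 10 and 13. It was at 14.4, 4.30, 11.2, 11.3 and 10.2 CPM in non-lesional replicates 3, 6, 9, 12 and 15, and at 16.5, 10.4, 10.9, 25.3 and 15.7 CPM in lesional replicates 2, 5, 8, 11 and 14. All 5 lesional libraries lay above all 5 WT libraries, whereas of the non-lesional libraries 4 lay above and 1, replicate 6, lay below them. The groups of 0.441% of all genes did not overlap in this direction between lesional and WT libraries.

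Between lesional and WT libraries the log2 fold change of *Aif1* was 1.19 (standard error 0.29), a fold of 2.28 with a 95% interval of 1.48 to 3.51. The unadjusted p was 0.0011, the smallest of the 12918 genes tested, and its value after adjustment was 0.926 (edgeR, adjusted p). A two-sided exact permutation test gave p = 0.0079, which is the smallest that 5 against 5 libraries allow. It follows from the lack of overlap given above and is no separate support. The members were chosen with earlier results of these data known, so the rank of *Aif1* cannot be taken as independent of that choice. Against WT, the non-lesional log2 fold change was 0.58 (standard error 0.29, unadjusted p = 0.063 from edgeR). Between lesional and non-lesional libraries it was 0.61 (standard error 0.32, unadjusted p = 0.075 from edgeR). In the order of the means, 6.9 ± 1.7 CPM in WT, 10.3 ± 3.7 CPM in non-lesional and 15.8 ± 6.0 CPM in lesional libraries (SD, n = 5 each), neighbouring groups therefore did not differ beyond their spread.

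These *Aif1* levels rest on few reads, 14 to 22 counts in WT, 10 to 32 in non-lesional and 20 to 50 in lesional libraries. The spread among WT libraries was that of counting alone, with a coefficient of variation of 24.6% where Poisson counting gives 24.7%, and among lesional libraries it was 38.1% where counting gives 17.4%. Without lesional replicates 2 and 11 the log2 fold change from WT was 0.83, with an unadjusted p of 0.014 and an adjusted p of 0.999 from edgeR. Between lesional and non-lesional libraries it was 0.26 without them, in place of 0.61.

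**Figure D2:**
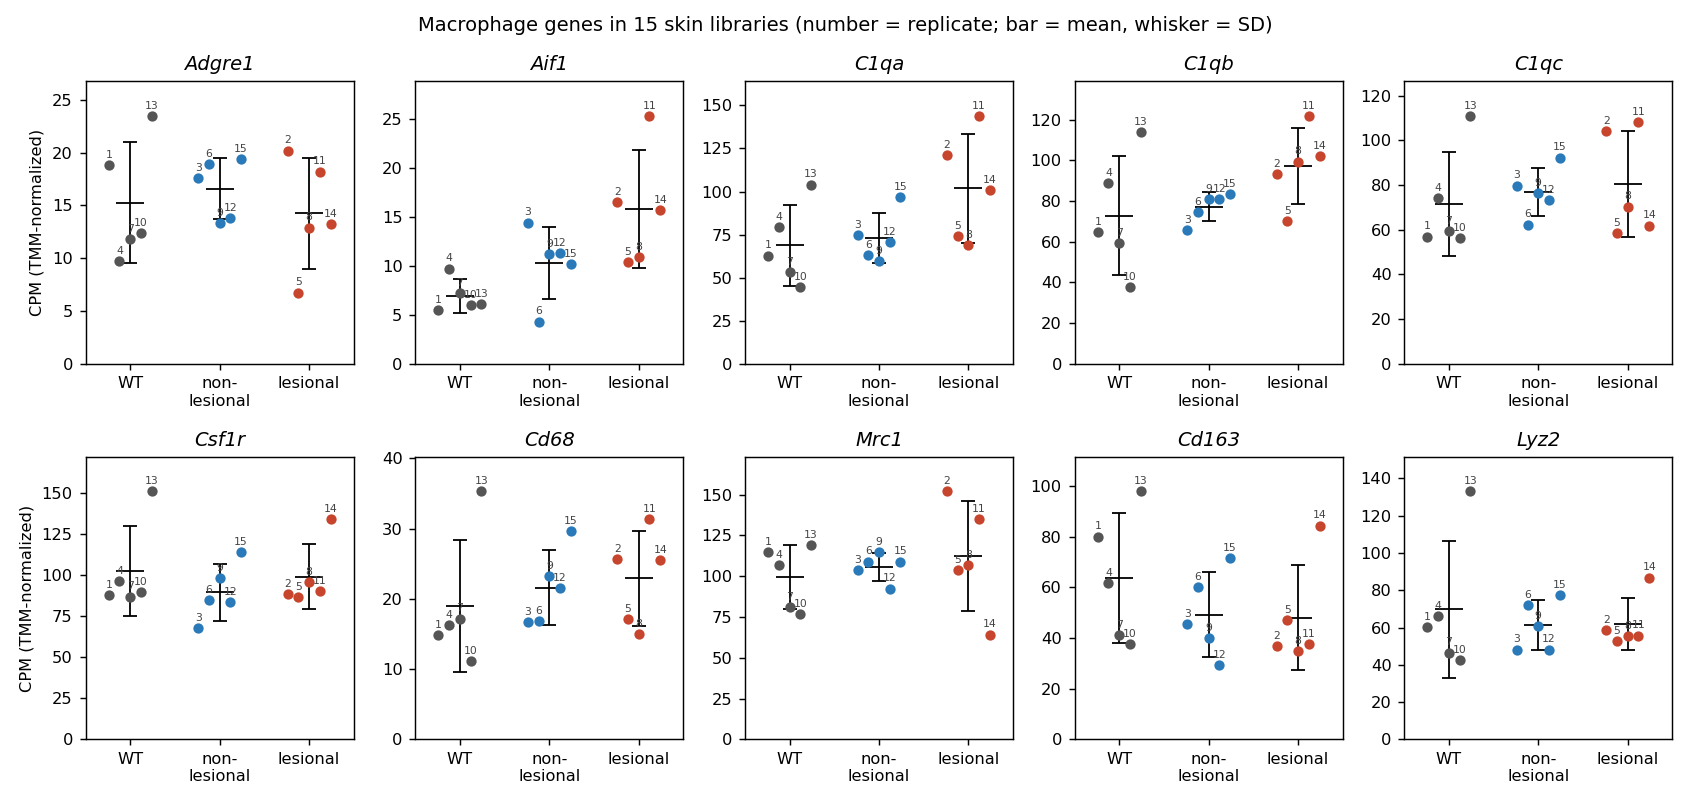
TMM-normalized CPM (y axis, linear from 0, one scale a panel) of the 10 macrophage genes in WT, non-lesional and lesional libraries. Each point is a library with its replicate number, the bar is the mean and the whisker the SD of 5 libraries. For *Aif1* the lesional points start at 10.4 CPM, above the highest WT point at 9.71 CPM.

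The chains of C1q were next. *C1qa* was at 62.8, 79.5, 53.0, 44.3 and 104 CPM in WT replicates 1, 4, 7, 10 and 13, and at 74.7, 63.1, 59.5, 70.5 and 96.7 CPM in non-lesional replicates 3, 6, 9, 12 and 15. In lesional replicates 2, 5, 8, 11 and 14 it was at 121, 74.2, 69.1, 144 and 101 CPM. Lesional replicates 2 and 11 were the highest of all libraries, and the other lesional libraries overlapped with WT. The fold between lesional and WT libraries was 1.48 (95% interval 1.02 to 2.16, unadjusted p = 0.043, adjusted p = 0.926 from edgeR). Between lesional and non-lesional libraries it was 1.40 (95% interval 1.03 to 1.90, unadjusted p = 0.035, adjusted p = 0.973 from edgeR). Exact permutation tests of the log2 CPM gave p = 0.087 and p = 0.095 for these comparisons. Without lesional replicates 2 and 11 the log2 fold change from WT was 0.24 in place of 0.57, with an unadjusted p of 0.342 from edgeR, and that from non-lesional libraries was 0.16 in place of 0.48, with an unadjusted p of 0.38.

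*C1qb* was at 64.8, 88.7, 59.3, 37.5 and 114 CPM in the WT libraries, at 65.7, 74.7, 80.8, 81.0 and 83.5 CPM in the non-lesional libraries and at 93.1, 70.0, 99.4, 122 and 102 CPM in the lesional libraries, in the same order of replicates. In 4 of 5 lesional libraries it lay above every non-lesional library, while the WT libraries spanned nearly the whole range. The fold between lesional and non-lesional libraries was 1.26 (95% interval 1.01 to 1.57, unadjusted p = 0.041, adjusted p = 0.973 from edgeR), and between lesional and WT libraries it was 1.33 (95% interval 0.915 to 1.94). Exact permutation tests of the log2 CPM gave p = 0.0635 and p = 0.143 for these comparisons. The log2 fold change from WT was 0.41, and 0.63 without WT replicate 13 (unadjusted p = 0.018, adjusted p = 0.971 from edgeR). Without lesional replicates 2 and 11 the log2 fold change from non-lesional libraries was 0.23 in place of 0.33, with an unadjusted p of 0.146 from edgeR.

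*C1qc* was at 56.3 to 111 CPM in WT (median 59.3), 62.3 to 92.3 CPM in non-lesional (median 76.2) and 58.6 to 108 CPM in lesional libraries (median 70.3). Its log2 fold change between lesional and WT libraries was 0.17 (standard error 0.23), within its error, and it was -0.18 without lesional replicates 2 and 11 and 0.38 without WT replicate 13. In lesional replicate 14, *C1qa* and *C1qb* were at 101 and 102 CPM and *C1qc* at 61.8 CPM, so the chains were not equally high in that library. Between non-lesional and WT libraries the log2 fold changes of the chains were 0.083, 0.079 and 0.098 for *C1qa*, *C1qb* and *C1qc*. The largest fold within their 95% intervals was 1.48, that of *C1qb*. With WT replicate 13 left out the log2 fold changes were 0.28, 0.30 and 0.32, and *C1qc* had an unadjusted p of 0.032 (adjusted p = 0.994 from edgeR).

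*Csf1r*, *Adgre1* and *Cd68*, the receptor and the general markers of macrophages, showed no difference beyond the spread. *Csf1r* (ENSMUSG00000024621) was at 88.0, 96.2, 86.9, 89.5 and 151 CPM in WT replicates 1, 4, 7, 10 and 13. In the non-lesional libraries it was at 68.0, 84.6, 98.3, 83.5 and 114 CPM, and in the lesional libraries at 88.5, 86.6, 95.8, 90.2 and 134 CPM. Apart from the highest library of each group, the WT and lesional values lay between 86.6 and 96.2 CPM. The lesional fold from WT was 0.967, with a 95% interval of 0.736 to 1.27. Its log2 fold change was -0.049, and 0.13 without WT replicate 13. Exons of *Csf1r* overlap those of *Hmgxb3* on the opposite strand over 873 bases, and the counting options that the methods list set no strand and count a read for each gene it overlaps, so part of its counts may belong to the other gene. No exon of another member overlaps another gene.

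*Adgre1* (ENSMUSG00000004730) was at 9.71 to 23.5 CPM in WT, 13.3 to 19.4 CPM in non-lesional and 6.74 to 20.2 CPM in lesional libraries. The lesional fold from WT was 0.933 (95% interval 0.587 to 1.48). Its log2 fold change was -0.10, but -0.48 without lesional replicates 2 and 11 and 0.11 without WT replicate 13, so it had no settled direction. *Cd68* (ENSMUSG00000018774) was at 14.9, 16.3, 17.2, 11.1 and 35.3 CPM in WT libraries, at 16.7 to 29.6 CPM in non-lesional libraries and at 25.7, 17.1, 15, 31.4 and 25.5 CPM in lesional libraries. WT replicate 13 was its highest library of all. The lesional log2 fold change of *Cd68* from WT was 0.26 (standard error 0.30), and it was -0.0019 without lesional replicates 2 and 11 and 0.62 without WT replicate 13 (unadjusted p = 0.032, adjusted p = 0.971 from edgeR).

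The scavenger receptors and lysozyme had no common direction. *Mrc1* (ENSMUSG00000026712), the mannose receptor, was at 76.7 to 119 CPM in WT, 92.4 to 115 CPM in non-lesional and 64.3 to 152 CPM in lesional libraries. Lesional replicate 2 was the highest and lesional replicate 14 the lowest of all 15. Its lesional log2 fold change from WT was 0.17, and -0.12 without lesional replicates 2 and 11. *Cd163* (ENSMUSG00000008845), the receptor for haemoglobin bound to haptoglobin, was at 80.1, 61.8, 41.2, 37.5 and 97.9 CPM in WT libraries and at 45.5, 60.1, 40.0, 29.2 and 71.5 CPM in non-lesional libraries. In lesional replicates 2, 5, 8, 11 and 14 it was at 36.7, 47.2, 34.8, 37.5 and 84.4 CPM, so that 3 libraries, replicates 2, 8 and 11, lay below every WT library, replicate 11 by less than the printed digits show, and replicate 14 was near the top of the WT range.

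The log2 fold change of *Cd163* from WT was -0.38 (standard error 0.30, unadjusted p = 0.238 from edgeR) in the non-lesional group and -0.41 (standard error 0.31, unadjusted p = 0.203 from edgeR) in the lesional group. Without lesional replicate 14 the lesional value was -0.71, and without WT replicate 13 it was -0.21. *Lyz2* (ENSMUSG00000069516) was at 60.1, 66.2, 46.6, 42.6 and 133 CPM in WT libraries, at 48.2 to 77.3 CPM in non-lesional libraries and at 58.7, 52.9, 55.4, 55.7 and 86.8 CPM in lesional libraries. In the non-lesional group its log2 fold change from WT was -0.19 (standard error 0.30), in the lesional group it was -0.17 (standard error 0.28), and both turned positive without WT replicate 13, at 0.19 and 0.20. In lesional replicates 2 and 11 the sum of neutrophil genes, mostly *S100a8* and *S100a9*, was highest. There *Lyz2* was at 58.7 and 55.7 CPM, below 3 of the WT libraries.

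Ratios between members within a library do not depend on how the libraries were scaled. These ratios were chosen after the values were seen and are given with no test. *Cd163* per *Mrc1* was 0.489 to 0.822 in WT libraries (median 0.576), 0.316 to 0.659 in non-lesional libraries (median 0.435) and 0.242, 0.455, 0.323, 0.278 and 1.31 in lesional replicates 2, 5, 8, 11 and 14. Of the lesional libraries 4 thus lay below every WT library and 1 lay above. *Cd163* per *C1qa* had medians of 0.846, 0.671 and 0.503 in the same order of groups. *Lyz2* per sum of the C1q chains had medians of 0.309, 0.281 and 0.232. *Aif1* per *Csf1r* was 0.040 to 0.101 in WT libraries, 0.051 to 0.212 in non-lesional libraries and 0.114 to 0.281 in lesional libraries, with no overlap between lesional and WT libraries.

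**Figure D3:**
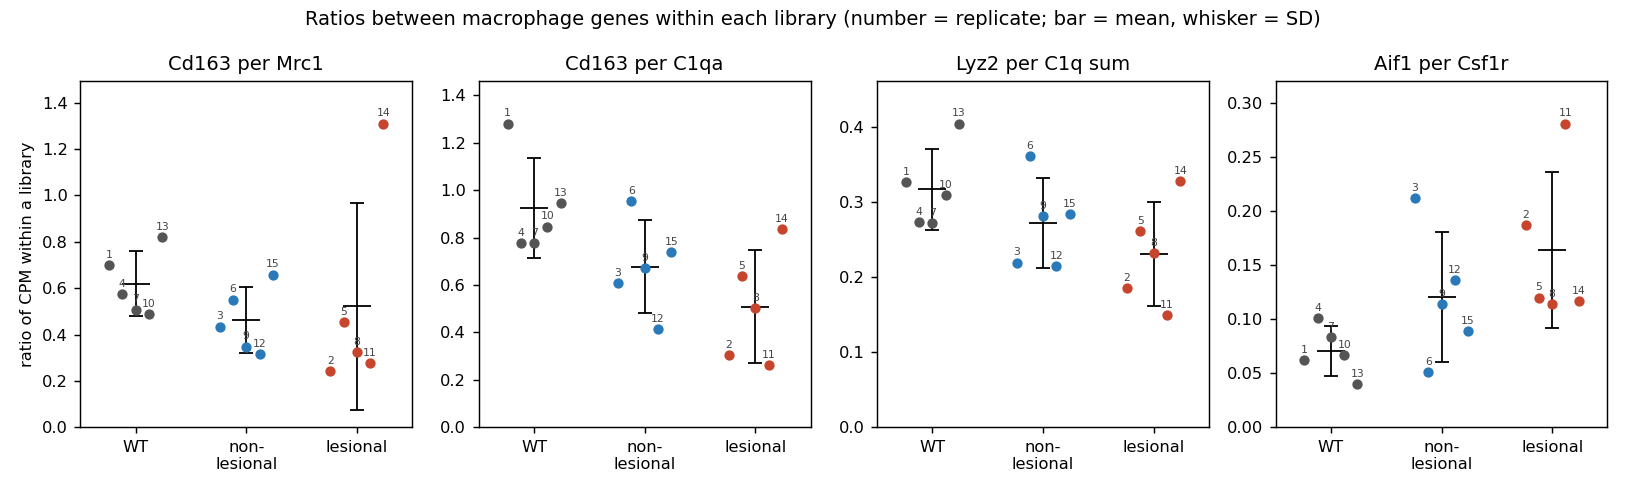
Ratios of CPM between macrophage genes within each library (y axis, linear from 0), for WT, non-lesional and lesional libraries. Points are libraries with their replicate numbers, bars are means and whiskers SD of 5 libraries. Lesional replicate 14 stands at 1.31 for *Cd163* per *Mrc1*, above all others, and all lesional points for *Aif1* per *Csf1r* are at or above 0.114, where the highest WT point is at 0.101.

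The levels of macrophage genes varied widely between libraries of 1 group. The summed level of the 10 members was 567, 610, 464, 414 and 895 CPM in WT replicates 1, 4, 7, 10 and 13. It was 535, 566, 578, 525 and 703 CPM in the non-lesional libraries and 716, 527, 571, 766 and 688 CPM in the lesional libraries. WT replicate 13 was the highest of all 15 libraries for 6 members, lesional replicate 11 for 3 and lesional replicate 2 for 1, and WT replicate 10 was the lowest of all 15 for 5. WT replicate 13 also had the highest summed level of fibroblast genes (68400 CPM) and of mast cell genes (285 CPM). Lesional replicates 2 and 11 had the lowest sums of adipocyte genes (2740 and 2010 CPM). The part of these tissues in the values of the members was not tested.

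Among WT libraries the coefficient of variation exceeded that of counting for every member but *Aif1*, by the most for *Lyz2* (52.5% where counting gives 7.64%). *Mrc1* varied least, by 19.7% where counting gives 6.43%. Without WT replicate 13 the members' median log2 fold change from WT became 0.29 for the non-lesional group and 0.31 for the lesional group. In the lesional comparison 4 of 10 members then had an unadjusted p under 0.05, *Aif1*, *C1qa*, *C1qb* and *Cd68*, where 4.08% of all genes did. In the non-lesional comparison 2 did, *C1qc* and *Cd68*, where 4.46% of all genes did. With this library left out, 0 members were called. It was the highest WT library for 9 of the 10 members, so leaving it out raises their fold changes in any case. These counts therefore cannot be read against the share of all genes as a result about the members. Lesional replicate 14 and non-lesional replicate 15 were kept, although their median member lay 0.47 and 0.35 above the WT mean in log2 CPM.

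**Figure D4:**
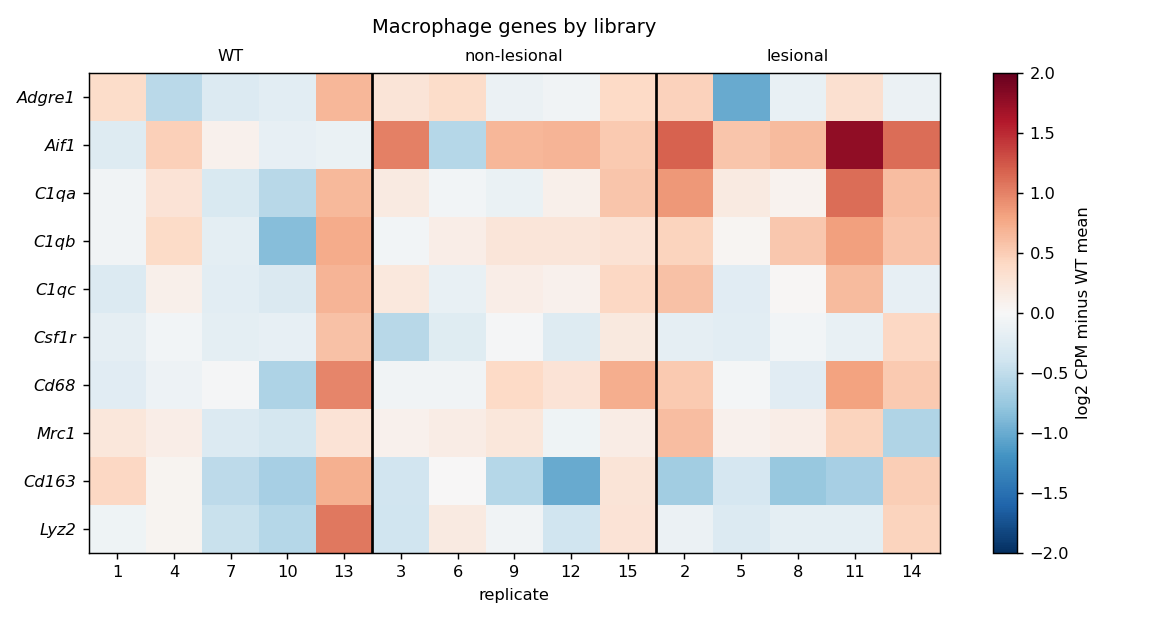
Log2 CPM of each macrophage gene (rows) in each library (columns, replicate numbers under their group) minus the mean of the 5 WT libraries, from blue (lower) to red (higher). The column of WT replicate 13 is red for all members but *Aif1*, and the row of *Aif1* is red in all lesional libraries.

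Over the 15 libraries, the 45 pairs of members had a median Pearson r of 0.448 for log2 CPM, between -0.365 and 0.855. For 9 pairs both Pearson's r and Spearman's rho had an adjusted p under 0.05 (two-sided permutation tests with 100000 resamples, Benjamini-Hochberg adjustment over 45 pairs). In these, *C1qa*, *C1qb*, *C1qc* and *Cd68* formed all 6 pairs among themselves, *C1qc* paired with *Mrc1*, and *Lyz2* paired with *Csf1r* and with *Cd163*. *C1qa* and *C1qb* had r = 0.826 (adjusted permutation p = 0.0018) and rho = 0.814 (adjusted permutation p = 0.018), and r was 0.70 without the 2 libraries farthest from the *C1qa* median. *Lyz2* and *Cd163* had r = 0.81 (adjusted permutation p = 0.0018) and rho = 0.682 (adjusted permutation p = 0.039), and r was 0.667 without the 2 farthest libraries. *Csf1r* and *Lyz2* had r = 0.855 (adjusted permutation p = 0.0018) and rho = 0.675 (adjusted permutation p = 0.039), which fell to r = 0.576 without the 2 farthest libraries.

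With the group means removed, the correlation of deviations within groups was 0.767 for *C1qa* with *C1qb*, 0.833 for *Lyz2* with *Cd163* and 0.874 for *Csf1r* with *Lyz2*. *Cd163* had r of 0.215, 0.221 and 0.030 with *C1qa*, *C1qb* and *C1qc*, and 0.459, 0.443 and 0.116 within groups. *Lyz2* had r = 0.646 with *Cd68* (adjusted permutation p = 0.027, 0.712 within groups) and r = 0.606 with *C1qb* (0.734 within groups), and *Csf1r* had r = 0.596 with *Cd68* (0.699 within groups), so the pairs above are not separate sets. *Aif1* had r = 0.673 with *C1qa* (adjusted permutation p = 0.026) but rho = 0.589 (adjusted permutation p = 0.073), and within groups 0.493. With *Cd163* its r was -0.365 (adjusted values for r and rho above 0.05). All pairs come from the same libraries and the same scaling, so tissue make-up and scaling enter every pair. The share of pairs of other genes that would pass is not given here.

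**Figure D5:**
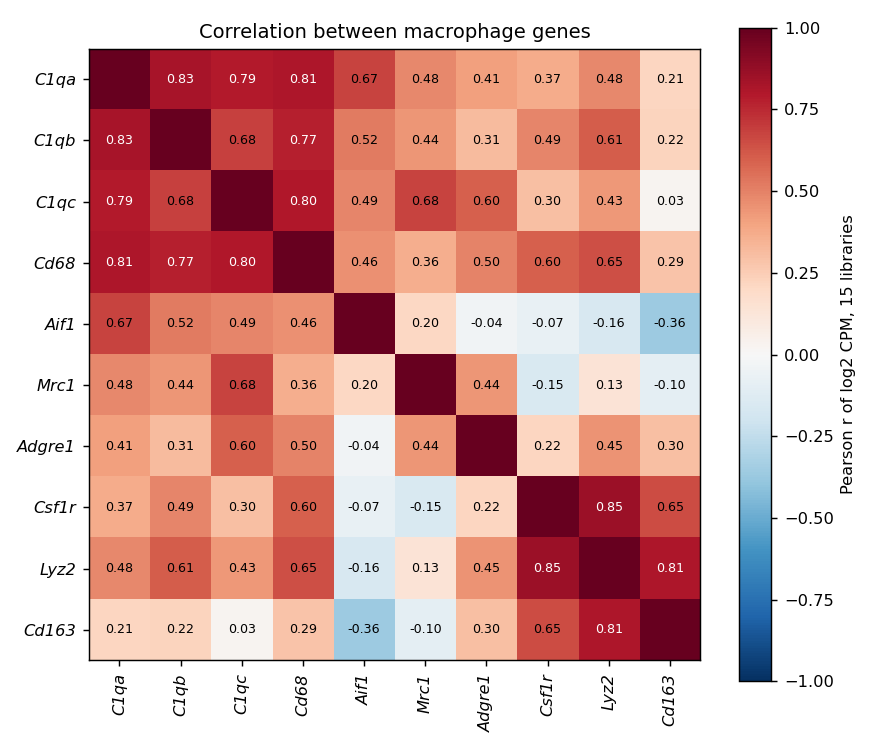
Pearson r of log2 CPM over 15 libraries for each pair of macrophage genes (number and colour in each cell, from blue at -1 to red at 1). *C1qa*, *C1qb*, *C1qc* and *Cd68* form a block at the upper left, and *Csf1r*, *Lyz2* and *Cd163* one at the lower right.

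Of 13451 other genes, those whose log2 CPM over the 15 libraries was most like the mean of the C1q chains were *Fcer1g* (r = 0.919), *Ly6a* (0.889), *Laptm5* (0.889), *Lgals9* (0.855) and *Sirt7* (0.846). *Fcer1g* encodes the signalling chain of activating Fc receptors, *Laptm5* a lysosomal membrane protein of blood cells and *Lgals9* the lectin galectin-9. Most like *Lyz2* were *C1ra* (r = 0.864), *Tpsb2* (0.862), ENSMUSG00000073985 (0.843), *Folr2* (0.836) and *Ftl1* (0.834). *C1ra* encodes a protease of the C1 complex, *Tpsb2* a tryptase of mast cells, *Folr2* a folate receptor of resident macrophages and *Ftl1* the ferritin light chain. These are the largest values of many, given as a description, and group means were not removed. Without WT replicate 13 the correlation with *Lyz2* was 0.744 for *Tpsb2* and 0.69 for *Ftl1*.

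Genes that act on or with the members were read from lists, and 0 genes of any list were called in any comparison by edgeR. Of 10 growth factors and chemoattractants of macrophages 6 were tested, and between lesional and WT libraries 2 were higher and 4 lower, with a median log2 fold change of -0.21. The ligands of Csf1r did not separate the groups. *Csf1* was at 21.7 to 43.5 CPM in WT and 13.2 to 35.8 CPM in lesional libraries, and *Il34* at 50.2 to 63.4 CPM in WT and 31.4 to 54.5 CPM in lesional libraries. *Ccl8*, a chemokine for monocytes, was at 19.2 to 47.8 CPM in WT libraries and at 112, 21.3, 29.9, 222 and 51.0 CPM in lesional replicates 2, 5, 8, 11 and 14 (log2 fold change 1.48, standard error 0.60, adjusted p = 0.926 from edgeR). It was high in lesional replicates 2 and 11, where the sum of neutrophil genes, mostly *S100a8* and *S100a9*, was high too.

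Of 20 receptors and adaptors of macrophages 14 were tested, with 9 higher and 5 lower between lesional and WT libraries and a median of 0.068, or -0.13 without lesional replicates 2 and 11. Without WT replicate 13, 13 were tested, and 11 were higher and 2 lower, with a median of 0.21. *Csf2rb2*, a chain of the interleukin-3 receptor, was higher in 4 of 5 lesional libraries than in any WT library (log2 fold change 0.57, standard error 0.25), at 7.34, 10.4, 12.9, 13.7 and 9.81 CPM against 5.54 to 9.51 CPM. Of 10 myeloid transcription factors 9 were tested, 7 of them higher, with a median of 0.14, or -0.19 without lesional replicates 2 and 11 and 0.22 without WT replicate 13. *Spi1*, which encodes PU.1, was at 4.69 to 11 CPM in WT and 7.34 to 12.7 CPM in lesional libraries.

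Of 16 markers of resident dermal macrophages 14 were tested, and 7 were higher and 7 lower in lesional than in WT libraries (median 0.012, or -0.12 without lesional replicates 2 and 11), and 1 higher and 13 lower in non-lesional than in WT libraries (median -0.12). Without WT replicate 13, 7 were higher and 7 lower in the non-lesional comparison (median 0.016), and 8 were higher and 6 lower in the lesional comparison (median 0.20). *Lyve1*, a hyaluronan receptor that lymphatic endothelium also makes, was at 91.6 to 198 CPM in WT, 82.4 to 145 CPM in non-lesional and 104, 110, 90.9, 46.6 and 97.1 CPM in lesional libraries (lesional log2 fold change from WT -0.57, standard error 0.25, unadjusted p = 0.038 from edgeR). *Prox1*, which defines lymphatic endothelium, had a log2 fold change of -0.63 (standard error 0.23) in the same comparison, and the part of those cells in the *Lyve1* value was not tested. *Stab1*, a scavenger receptor, was at 44.0, 36.3, 44.0, 50.1 and 61.8 CPM in lesional libraries, above all non-lesional libraries in 4 of 5 (log2 fold change 0.52, standard error 0.20, adjusted p = 0.973 from edgeR).

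Of 16 markers of monocyte-derived and activated macrophages 9 were tested, and 8 were higher and 1 lower between lesional and WT libraries (median 0.26, or -0.015 with 4 higher and 5 lower without lesional replicates 2 and 11), while 4 were higher and 5 lower between non-lesional and WT libraries (median -0.17). Without WT replicate 13 the non-lesional median was 0.12, with 5 higher and 4 lower, and the lesional median was 0.40, with 8 higher and 1 lower. *Ms4a6c*, a membrane protein of monocytes, was at 36.7, 27.0, 23.8, 43.1 and 21.1 CPM in lesional libraries against 16.3 to 25.2 CPM in WT libraries (log2 fold change 0.67, standard error 0.22, adjusted p = 0.926 from edgeR). *Cybb*, the catalytic subunit of the phagocyte NADPH oxidase, was at 44.0, 14, 27.9, 44.1 and 25.5 CPM in lesional libraries against 13.6 to 29.6 CPM in WT libraries. The summed level of this list was 721 to 1190 CPM in WT libraries and 785 to 1470 CPM in lesional libraries, highest in replicate 11.

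All 19 listed genes of lysosomes and phagosomes were tested, and 16 were higher and 3 lower in lesional than in WT libraries, with a median of 0.21. Without lesional replicates 2 and 11, 8 were higher and 11 lower, with a median of -0.0091, and without WT replicate 13 the median was 0.36. *Ctss*, the cathepsin of antigen-presenting cells, was at 188 and 224 CPM in lesional replicates 2 and 11 and at 68.5 to 81.4 CPM in the other lesional libraries, against 54.1 to 96.8 CPM in WT libraries. *Laptm5* was at 87.1 and 96.2 CPM in lesional replicates 2 and 11 and at 47.2 to 70.7 CPM in the other lesional libraries, within the 33.7 to 75.9 CPM of WT libraries. *Psap*, which encodes the precursor of saposins and is made by many cell types, went the other way. It was at 122, 108, 120, 75.5 and 96.2 CPM in lesional libraries, below all WT libraries, which were at 139 to 203 CPM, as 0.248% of all genes did (log2 fold change -0.60, standard error 0.16, unadjusted p = 0.0021, adjusted p = 0.926 from edgeR).

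Of 23 listed complement genes beyond C1q 16 were tested, with 7 higher and 9 lower between lesional and WT libraries and a median of -0.016. Without WT replicate 13, 12 were higher and 4 lower, with a median of 0.21, so the direction rests on that library. *C3*, the central component that C1q activation leads to, was at 25.8 to 49.0 CPM in WT, 35.4 to 68.0 CPM in non-lesional and 34.4 to 65.7 CPM in lesional libraries (lesional log2 fold change 0.48, standard error 0.22, adjusted p = 0.926 from edgeR).

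The 6 genes that all leukocytes share were higher in lesional than in WT libraries in 6 of 6 cases (median 0.34, or 0.15 with 4 of 6 higher without lesional replicates 2 and 11, and 0.42 with 6 of 6 higher without WT replicate 13), and their summed level was 97.4 to 140 CPM in WT, 102 to 129 CPM in non-lesional and 169, 98.5, 144, 211 and 129 CPM in lesional replicates 2, 5, 8, 11 and 14. *Ptprc*, which encodes the leukocyte antigen CD45, was at 32.2 to 49.0 CPM in WT, 34.2 to 41.1 CPM in non-lesional and 41.2 to 63.3 CPM in lesional libraries. It lay above all non-lesional libraries in 5 of 5 lesional libraries, as 0.295% of all genes did (log2 fold change 0.45, standard error 0.16, adjusted p = 0.973 from edgeR).

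Of the 12 neutrophil genes, *Ly6g* and *Csf3r* were at 0 in all 15 libraries and separated nothing. *Cxcr2*, a chemokine receptor of neutrophils, was at 5.04, 1.04, 0, 5.57 and 0 CPM in lesional replicates 2, 5, 8, 11 and 14, at 0.405 CPM in 1 non-lesional library, and at 0 in the other non-lesional and all WT libraries. *Stfa2l1* was at 2.29 and 20.8 CPM in lesional replicates 2 and 11 and at 0 in all other libraries. *Mmp9* was at 20.2 and 92.7 CPM in these libraries and at 3.53 to 10.6 CPM in WT libraries. *Retnlg* was at 0.459 and 11.6 CPM in lesional replicates 2 and 11 and at most at 1.67 CPM elsewhere, and *Mmp8* was at 0.459 and 2.53 CPM and at most at 1.35 CPM elsewhere. The granule genes *Camp* and *Ngp* were at 0.507 CPM in lesional replicate 11 and at 0 in all others, and *Ltf* was at 0.404 CPM in lesional replicate 8 and at 0 in all others. *S100a8*, which stressed keratinocytes make too, was at 2.42 to 4.67 CPM in the other 3 lesional libraries. The part of neutrophils and keratinocytes in the values of the members was not tested. The 10 markers of Langerhans and dendritic cells had a summed level of 36.2 to 43.3 CPM in WT, 33.2 to 42.1 CPM in non-lesional and 31.9 to 47.1 CPM in lesional libraries, of which *Cd207*, the marker of Langerhans cells, was at 2.36 to 6.07 CPM in WT and 2.42 to 6.74 CPM in lesional libraries. Skeletal muscle genes summed to 17300 to 33000 CPM in WT and to 16100, 29600, 25000, 3800 and 37900 CPM in lesional replicates 2, 5, 8, 11 and 14. With the muscle and hair scores taken as covariates, the lesional log2 fold change from WT was 0.83 for *Aif1* (unadjusted p = 0.0091, adjusted p = 1 from edgeR), 0.31 for *C1qa* and 0.20 for *C1qb*. Over 11 hair follicle genes the sum was 255 CPM in WT replicate 1 and 9.72 to 36.8 CPM in the other libraries. The hair score rests on 2 genes, and muscle genes were lowest in lesional replicate 11, so the covariates also carry differences between lesional libraries. Y-linked genes were at or near 0 in 1 library of each group (WT replicate 1, non-lesional replicate 12 and lesional replicate 11), and with their score as a covariate the value of *Aif1* was 1.15.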

How the data were processed

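Skin RNA of 15 mouse libraries was sequenced with QuantSeq 3′ kits (FWD). The authors clipped adaptors (cutadapt 2.10), mapped reads with subread-align to GRCm38 and spike-in sequences, filtered matches with SAMtools 1.7-2 and counted exonic matches with featureCounts 2.0.1, once for every gene a match overlapped. They deposited the raw counts used here. They also deposited CPM, which are counts over library totals (checked) and were not used. The annotation release is not given in the sources used here. The 92 spike-in rows sum to 0 counts and were left out. PCR copies were not removed, and intervals of counting cover counting error only.

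Each pair of groups was compared in R 4.3.3 with edgeR 4.0.16 (filterByExpr, TMM, robust quasi-likelihood F-test, Benjamini-Hochberg adjustment over all genes, threshold adjusted p under 0.05). Standard errors are the absolute log2 fold change over the square root of F. Log2 CPM used a prior count of 2. Permutation tests were two-sided on log2 CPM. Alternatives were DESeq2 1.42.0, limma 3.58.1 (voomWithQualityWeights), other normalizations and filters, covariates, all libraries in 1 fit, and leaving out libraries. The fit was also run on simulated data, whose outcome is not reported here and is not used as support. No 2 libraries of a group agreed within counting noise (chi-square per degree of freedom at least 3.72). The study gives 5 mice a group, and whether lesional and non-lesional samples share mice is not stated.

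The members and the gene lists were chosen with earlier results of these data known. Genes named are the members, *Otulin*, at most 3 genes a list with the smallest unadjusted p, markers that define a cell type, *Krt6b* and all 12 neutrophil genes (chosen after the values were seen), and the 5 genes most correlated with the C1q mean and with *Lyz2*. Those most like *Aif1* were added after the values were seen. *Csf1*, *Il34* and *Spi1* were named for their role. Positions are from GENCODE M21 (GRCm38), in which 55141 of 55487 gene IDs were found.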

Additional observations from a re-analysis of the deposited data

Results flagged for a closer look

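In 30 groups of 5 values, 10 members in each of 3 groups, the highest or lowest library was compared with the rest of its group by Dixon's rule, which flags about 1 in 20 groups by chance. It singled out 6 groups, each for a highest library, and these came from only 2 libraries, WT replicate 13 and lesional replicate 14. In WT replicate 13, *Csf1r* was at 151 CPM where the other WT libraries were at 86.9 to 96.2 CPM, *Cd68* at 35.3 CPM where the others were at 11.1 to 17.2 CPM, and *Lyz2* at 133 CPM where the others were at 42.6 to 66.2 CPM. In lesional replicate 14, *Csf1r* was at 134 CPM where the other lesional libraries were at 86.6 to 95.8 CPM, *Cd163* at 84.4 CPM where the others were at 34.8 to 47.2 CPM, and *Lyz2* at 86.8 CPM where the others were at 52.9 to 58.7 CPM. In the same library *Mrc1* was at 64.3 CPM, the lowest of all 15. In the non-lesional group, where no library was singled out, replicate 15 was the highest for *Csf1r* (114 CPM), *Cd68* (29.6 CPM), *Cd163* (71.5 CPM) and *Lyz2* (77.3 CPM). The labels do not say whether the neighbouring numbers 13, 14 and 15 share anything. Members of 1 library are not independent of each other, and the cause was not tested.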

How the results depend on the processing

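No paired analysis was run. The labels give each group its own replicate numbers, and no number is shared between groups. The numbers run in turn from WT to lesional to non-lesional libraries, but no label says that neighbouring numbers share a mouse, litter or day. If they do, the unpaired tests leave this out. In all alternatives 0 members were called in each comparison. Over all genes, DESeq2's Wald test called 3 genes when non-lesional libraries were compared with WT, and 1 when lesional libraries were, in place of 0, no filter on low counts called 18 in the first of these, and leaving out each replicate gave 0 to 5 genes there (5 without non-lesional replicate 6). The cause was not tested. Leaving out each replicate gave a median log2 fold change of the members of -0.017 to 0.294 between non-lesional and WT libraries (lowest without WT replicate 10, highest without WT replicate 13), 0.051 to 0.312 between lesional and WT libraries (lowest without lesional replicate 2, highest without WT replicate 13), and 0.045 to 0.184 between lesional and non-lesional libraries (lowest without lesional replicate 11). With hair and muscle scores as covariates the last 2 medians were -0.035 and -0.0043. The lesional log2 fold change of *Aif1* from WT was 0.83 to 1.34 over 22 alternatives, with an unadjusted p under 0.05 in each and an adjusted p of 0.243 to 1 from the tools run. That of *C1qa* was 0.24 to 0.76, with an unadjusted p under 0.05 in 11 of 22. Depth limits *Aif1* and *Adgre1* most, with as few as 10 and 13 counts in a library.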

Other observations

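The genes whose log2 CPM over the 15 libraries was most like that of *Aif1* were looked up after the data were seen. They were *Vcam1* (r = 0.888), an adhesion molecule for leukocytes, *Uba7* (0.884) and *Usp18* (0.872), which attach and remove the interferon-induced modifier ISG15, and *Eif3c* (0.881) and *Capns1* (0.862). Without WT replicate 13 these correlations were 0.849 to 0.917. They are the largest of 13451 values and are given as a description. Group means were not removed, so genes that differ between the groups as *Aif1* does can rank high.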
